A study of Homo sapiens with 4 samples.

Results

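The contractile actomyosin and tropomyosin genes are a set of 10 genes, TAGLN, CNN1, CNN2, CNN3, ACTA2, MYL9, TPM1, TPM2, TPM4 and CALD1, out of 25559 gene symbols counted in HGC-27 cells. They were picked by symbol after TAGLN, MYL9 and TPM1 had been seen at higher levels in RUNX3 KO cells while most mesenchymal genes were lower. The levels of the 10 genes in control and RUNX3 KO cells are therefore given as a description, without a test. HGC-27 is a gastric cancer cell line derived from a lymph node metastasis. RNA-seq was carried out on 2 libraries of wildtype cells, the control, and 2 libraries of RUNX3 knock-out cells, all grown with fetal bovine serum and antibiotics, in MEM by the labels and in RPMI1640 by the methods of the paper. The knock-out was made with a lentiviral guide RNA against RUNX3 and Cas9, followed by puromycin selection and single-cell cloning. The sources used here do not state how many clones were sequenced, whether the replicates were separate cultures, or whether the control cells carried a vector, so differences between clones and the loss of RUNX3 cannot be told apart.

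Smooth muscle and myofibroblast-like cells contract through filaments of actin and bipolar filaments of myosin II. Myosin II pulls on actin when its regulatory light chain is phosphorylated, tropomyosins lie along the actin filament and select which proteins may bind it, and calponins and caldesmon bind actin and restrain the myosin motor. Many of these genes are classical targets of serum response factor (SRF) and its cofactors of the myocardin family, which bind the CArG box, and their RNA is widely used as a readout of myofibroblast or mesenchymal character. In carcinoma cells the same proteins build stress fibres.

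Each library held between 11731401 and 12110876 reads assigned to genes. RUNX3, the targeted gene, was still counted, with 351 and 308 reads in control and 225 and 185 in RUNX3 KO libraries (log2 fold change -0.70, SE 0.0961, edgeR adjusted p = 1.43e-09). Without RUNX3 KO replicate 2 this change was -0.55 with an adjusted p of 0.0649. These counts are of RNA. The paper reports RUNX3 protein as absent from the knock-out cells by immunoblot, and a difference in RUNX3 mRNA by RT-qPCR. The chi-square per degree of freedom was 1.18 to 1.22 between replicates and 17.1 to 17.3 between conditions. The p-values thus measure a spread that may be technical. The paper describes HGC-27 as poorly differentiated and its cell lines as authenticated by DNA profiling. An epithelial type was not evident from its markers, though 4 of the 10 had enough counts to be tested. Of 10 epithelial markers, KRT19 and GRHL2 had 0 counts in every library, which allows up to 3 counts, and EPCAM had at most 1. The 10 markers together reached 5.80 to 6.22 CPM in control and 19.0 to 19.2 CPM in RUNX3 KO libraries. CPM is the count scaled to a common library size. Of 9 fibroblast markers all were tested, 8 fell and FAP was not called, where 24.4% of all tested genes were called lower, and their summed level was 3731 to 3852 CPM in control and 2531 to 2559 CPM in RUNX3 KO libraries. No defining fibroblast marker was at 0 in all libraries, and COL1A2 went from 1973 and 2030 counts to 1 and 5. Several of the contractile genes are themselves used as markers of activated fibroblasts. The part of these marker levels in the results below was not tested. In bulk RNA of a cell line, fewer cells holding a marker and less of its RNA per cell cannot be told apart.

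Promoter sequences, from 250 bases before to 50 bases after the start, were found for 8 of the 10 genes in RefSeq (16 starts, table of build GRCh38.p14) and were not found for TAGLN and MYL9. Each matched GRCh37 exactly, at 1 place, and positions are given on that build, which the authors call hg19. The bases before each start were searched for the CArG box, exactly or with at most 1 mismatch in its A/T core, and for the letters TGTGGT, the core of the RUNX site, on both strands. An exact CArG box lay before 2 of the 16 starts, in CNN2 and TPM4, against 1.16% of 35116 promoters in the table. With 1 mismatch allowed, 4 of the 16 starts and 7.04% of all promoters had a match, which added ACTA2 and CALD1. TGTGGT was found before 2 of the 16 starts, in CNN3 and CALD1, against a share of 10.98% in all promoters. CNN1, TPM1 and TPM2 had none of these letters before their starts. The stretches with a match are printed because they hold the letters of the SRF and RUNX elements, in genes that were lower (ACTA2, TPM4) or little different (CNN2, CALD1, CNN3) in RUNX3 KO cells. Capitals mark the match, and all sequences are read 5′ to 3′ on the strand of the gene.
ACTA2, chr10:90712592-90712651, minus strand: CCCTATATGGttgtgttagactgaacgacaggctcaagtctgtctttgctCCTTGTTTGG
CNN2, chr19:1026493-1026552, plus strand: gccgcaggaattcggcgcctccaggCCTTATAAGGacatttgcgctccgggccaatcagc
TPM4, chr19:16178150-16178209, plus strand: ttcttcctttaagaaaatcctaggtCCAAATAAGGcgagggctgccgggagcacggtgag
CALD1, chr7:134396173-134396234, plus strand: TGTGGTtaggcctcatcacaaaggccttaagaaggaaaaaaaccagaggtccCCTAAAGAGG
CNN3, chr1:95391326-95391385, minus strand: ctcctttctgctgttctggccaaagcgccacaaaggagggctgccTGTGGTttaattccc
In ACTA2 the 2 matches, each with 1 mismatch, begin 121 and 71 bases before the downstream of its 2 starts in the table. The exact box of CNN2 begins 89 bases and that of TPM4 173 bases before a start. In CALD1 the matches lie at 1 of 4 starts in the table, which is outside the span of CALD1 in the GENCODE annotation used below, and in CNN3 at 1 of 2 starts. The counts are per gene, so which start was used is not known from these data, and a match of letters does not show binding.

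All 10 genes passed the filter on low counts, with a mean of 29 counts for CNN1 and of 10387 for TPM4, the least and the most counted. None of them differed by 2-fold, whereas 6.12% of all tested genes differed by at least 2-fold with an unadjusted p of at most 0.05, 2.11% as higher and 4.01% as lower. In 9 of the 10 the libraries of the 2 conditions did not overlap in CPM, 6 being higher and 3 lower in RUNX3 KO cells. Over all 12967 tested genes the share without overlap was 72.7% (36.3% higher and 36.4% lower), and since the genes were chosen from this contrast nothing is read from their number. The median log2 fold change of the 10 genes was 0.15 and their median size 0.45, beside -0.0021 and 0.19 for all tested genes. The set thus divided into 4 genes that were higher by more than 0.5 on the log2 scale (MYL9, CNN1, TAGLN, TPM1), 4 that differed by less than 0.2 (CALD1, CNN2, TPM2, CNN3), and 2 that were lower (TPM4, ACTA2).

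**Figure D1:**
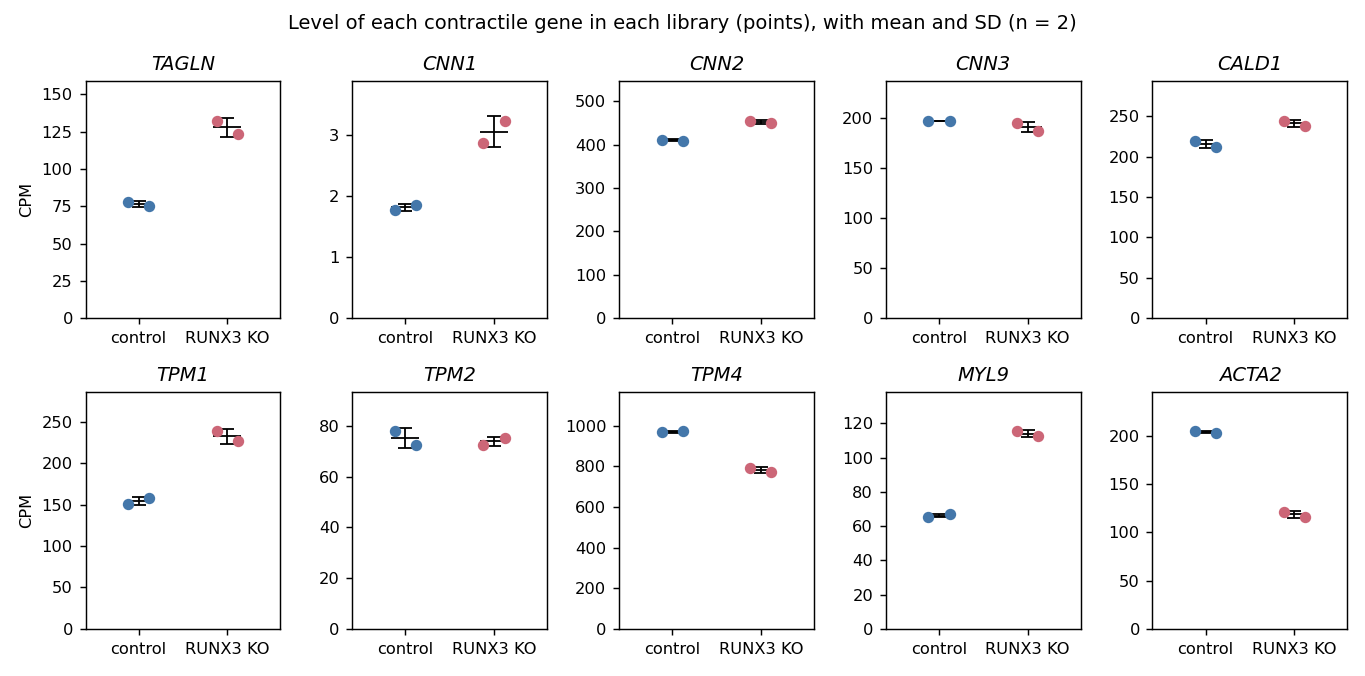
Level of each contractile gene in CPM (scaled counts, vertical axis starting at 0) in the 2 control and 2 RUNX3 KO libraries, 1 point per library, with mean and SD. TAGLN, CNN1, TPM1 and MYL9 sit higher and ACTA2 and TPM4 lower in both RUNX3 KO libraries, while the libraries of TPM2 overlap.

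TAGLN encodes transgelin (SM22), a small calponin-like protein that binds and bundles actin and is an early marker of smooth muscle. It had 920 and 889 counts in control and 1562 and 1480 in RUNX3 KO libraries, or 76.6 ± 1.83 and 128 ± 6.53 CPM (SD, n = 2 in each). Both RUNX3 KO libraries were above both control libraries, at 1.67-fold, a log2 fold change of 0.74 (SE 0.0464). TAGLN lies on chromosome 11 from 117070086 to 117078180, plus strand, and in the annotation shares exon bases with PCSK7 on the opposite strand. Of the 50-base stretches of its MANE Select transcript, 82.4% also occur in transcripts of PCSK7 or of unnamed genes at the same place. PCSK7, a proprotein convertase gene, had 680 and 708 counts in control and 679 and 638 in RUNX3 KO libraries (log2 fold change -0.09, edgeR adjusted p = 0.216). PCSK7 was thus not called, and the part of shared reads in TAGLN was not tested.

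MYL9 encodes a regulatory light chain of smooth muscle and non-muscle myosin II, the subunit that is phosphorylated to switch the motor on. Its counts were 774 and 789 in control and 1362 and 1353 in RUNX3 KO libraries. The level went from 66.2 ± 0.918 to 114 ± 2.02 CPM (SD, n = 2 in each), which is 1.72-fold or 0.78 on the log2 scale (SE 0.0484). MYL9 lies on chromosome 20 from 35169900 to 35179850, plus strand, with no overlapping gene among the counted symbols.

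The calponins CNN1, CNN2 and CNN3 did not share a direction. CNN1, basic calponin, which is restricted to smooth muscle and related cells in most tissues, was barely expressed, with 21 and 22 counts in control and 34 and 39 in RUNX3 KO libraries. Its 1.68-fold higher level (log2 fold change 0.75, SE 0.270) rests on these few reads and is the least precise of the 10. CNN2, the calponin of many non-muscle cells, had 4854 and 4818 counts in control and 5372 and 5401 in RUNX3 KO libraries, 0.14 higher on the log2 scale (SE 0.0269). CNN3, acidic calponin, had 2334 and 2335 against 2305 and 2256 counts, a log2 fold change of -0.05 (SE 0.0349). CNN2 and CNN3, which held nearly all calponin reads, thus differed little between the conditions. CNN2 lies on chromosome 19 from 1026585 to 1039067, plus strand, and CNN3 on chromosome 1 from 95362505 to 95392779, minus strand.

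CALD1 encodes caldesmon, an actin-binding protein that restrains myosin and stabilizes stress fibres. Its counts were 2582 and 2502 in control and 2887 and 2867 in RUNX3 KO libraries, 0.17 higher on the log2 scale (SE 0.0331). The difference was small, with 215 ± 4.73 CPM in control and 242 ± 4.33 CPM in RUNX3 KO libraries (SD, n = 2 in each). Its libraries did not overlap between conditions, which also held for 72.7% of all tested genes, so nothing is read from it. CALD1 lies on chromosome 7 from 134429003 to 134655480, plus strand, and its isoforms are not separated in the counts.

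ACTA2 encodes smooth muscle alpha-actin, the usual marker of myofibroblasts, and it went against TAGLN, MYL9 and CNN1. Its counts were 2413 and 2395 in control and 1424 and 1396 in RUNX3 KO libraries. The level went from 204 ± 1.02 to 118 ± 3.20 CPM (SD, n = 2 in each), a log2 fold change of -0.78 (SE 0.0380). ACTA2 was therefore 1.72-fold lower, as large a factor as that by which MYL9 was higher. ACTA2 lies on chromosome 10 from 90694831 to 90751096, minus strand, and overlaps FAS and STAMBPL1, which are on the plus strand. FAS, a death receptor gene that shares exon bases with the upstream end of ACTA2, fell from 451 and 463 to 221 and 236 counts (log2 fold change -1.01, SE 0.0835, edgeR adjusted p = 6.35e-19). STAMBPL1, a deubiquitinase gene, fell from 71 and 69 to 47 and 41 counts (log2 fold change -0.68, edgeR adjusted p = 0.00233). All 3 overlapping genes were thus lower in both RUNX3 KO libraries, and the part of shared reads was not tested. Of the 50-base stretches of the ACTA2 MANE Select transcript, 30.1% also occur in ACTA2-AS1 and none in transcripts of FAS or STAMBPL1.

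The tropomyosins did not share a direction. TPM1, a tropomyosin with many isoforms including those of muscle and of stress fibres, had 1783 and 1867 counts in control and 2816 and 2721 in RUNX3 KO libraries. Both RUNX3 KO libraries were higher, by 0.59 on the log2 scale (SE 0.0359), with 155 ± 5.08 and 232 ± 8.67 CPM (SD, n = 2 in each). TPM4, the most abundant tropomyosin here and a non-muscle form, had 11420 and 11480 counts in control and 9374 and 9273 in RUNX3 KO libraries. Both RUNX3 KO libraries were lower (log2 fold change -0.31, SE 0.0231), with 970 ± 3.88 and 783 ± 16.2 CPM (SD, n = 2 in each). TPM2, beta-tropomyosin, had 920 and 855 counts in control and 858 and 905 in RUNX3 KO libraries, so its libraries overlapped (log2 fold change -0.02, SE 0.0523) and its sign changed in fits lacking either control replicate 1 (0.03) or RUNX3 KO replicate 1 (0.0042), with -0.08 as the lowest value of such fits. TPM3, the remaining tropomyosin gene, was not among the 10 and was tested, with 4405 and 4422 counts against 4451 and 4565 (log2 fold change 0.02, edgeR adjusted p = 0.642). Of the TPM4 transcript, 29.9% of 50-base stretches recur elsewhere, mostly in its pseudogenes, whereas no stretch of TPM1 or TPM2 does. TPM2 lies on chromosome 9 from 35681989 to 35690053, minus strand, and TPM4 on chromosome 19 from 16177831 to 16213812, plus strand. Isoforms of a tropomyosin gene are not separated in these counts.

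To set paralogs side by side, each gene was also expressed as a share of its family after division by the length of its MANE Select transcript. TPM1 made up 19.6% and 20.4% of tropomyosin reads per kilobase in control and 31.0% and 30.3% in RUNX3 KO libraries, while TPM4 went from 61.7% in both control libraries to 50.8% and 50.7%. The share of TPM1 was thus 10.6 percentage points higher and that of TPM4 10.9 points lower, whereas those of TPM2 and TPM3 moved by less than 0.3 points on this scale. The size of this shift depends on the lengths used, being 6.01 points for TPM1 in reads not divided by length and 4.75 points with the length of all annotated exons, a choice added after seeing the data. The share of TPM3 was 2.03 points higher in reads and 1.64 points higher with all exons, and that of TPM2 0.264 and 1.05 points. Tropomyosin reads in all went from 1583 ± 5.59 to 1456 ± 20.3 CPM, here by library size alone (SD, n = 2 in each). MYL9 went from 6.84% ± 0.0253 to 11.7% ± 0.0458 (SD, n = 2 in each) of the regulatory light chains, the rest being MYL12A and MYL12B. In reads MYL9 went from 15.95% to 25.6%, and with all exons from 12.3% to 20.2%. TAGLN went from 9.66% ± 0.417 to 16.8% ± 0.921 of the transgelins, most of which were TAGLN2, and in reads from 22.7% to 35.8%. ACTA2 was a small part of the actins, most of which were ACTB and ACTG1, at 4.38% ± 0.0405 of actin reads per kilobase in control and 2.58% ± 0.0397 in RUNX3 KO cells, and with all exons at 2.51% and 1.46%. Among calponins, CNN2 held 65.5% ± 0.135 in control and 68.2% ± 0.362 in RUNX3 KO cells.

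**Figure D2:**
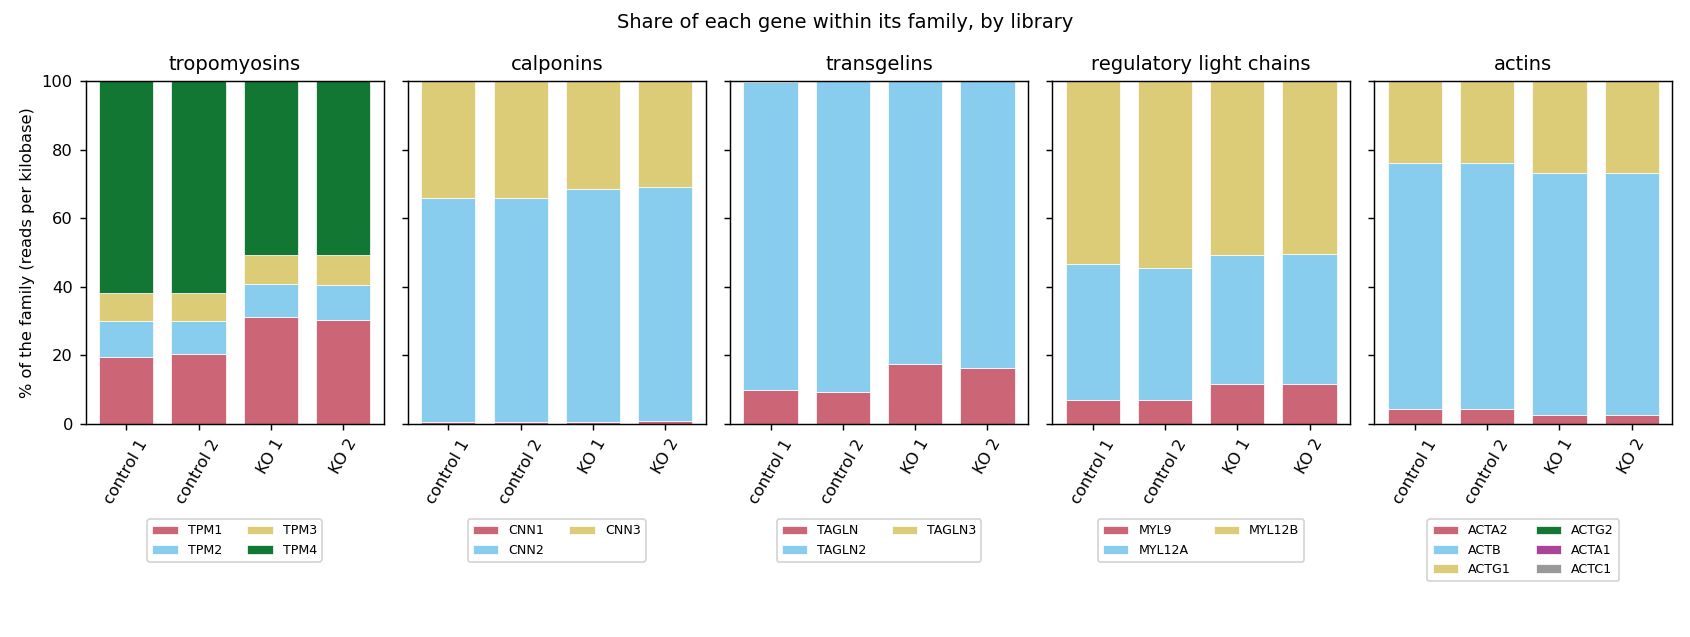
Share of each gene in its family (vertical axis, percent of reads per kilobase of the MANE Select transcript) in the 2 control and 2 RUNX3 KO (KO) libraries, 1 stacked bar per library. TPM1 takes 19.6% and 20.4% of the tropomyosins in control and 31.0% and 30.3% in RUNX3 KO libraries, and TAGLN and MYL9 likewise take a larger share of their families.

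Per length of the MANE Select transcript, TPM4 had the highest level of the 10 genes in both conditions, at 392 ± 1.57 CPM per kilobase in control and 316 ± 6.54 in RUNX3 KO cells (SD, n = 2 in each). CNN2 came next, at 191 ± 0.947 and 210 ± 1.94. In control cells ACTA2 (151 ± 0.755) stood above TPM1 (127 ± 4.17) and CNN3 (99.3 ± 0.0594). In RUNX3 KO cells TPM1 (191 ± 7.12) stood above CNN3 (96.2 ± 2.71), and ACTA2 (87.8 ± 2.37) came after both. CNN1 was the lowest in both, at 1.22 ± 0.0403 and 2.04 ± 0.171 CPM per kilobase. TPM2 (63.2 ± 3.25 and 62.2 ± 1.54) and CALD1 (43.0 ± 0.944 and 48.2 ± 0.864) stood between, in that order. MYL9 (23.8 ± 0.330 and 40.9 ± 0.724) and TAGLN (20.2 ± 0.485 and 33.7 ± 1.72) were the lowest after CNN1 in both conditions. No 2 neighbours in these orders had libraries that overlapped. The order depends on the length used. Per kilobase of all annotated exons, a length tried after seeing the data, CNN2 had the highest level in control and RUNX3 KO cells (113 ± 0.559 and 124 ± 1.14), TPM4 came to 78.4 ± 0.314 and 63.3 ± 1.31 and TPM1 to 10.52 ± 0.345 and 15.8 ± 0.589 (SD, n = 2 in each).

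To compare the 10 genes with their surroundings on the chromosome, each was set beside the 20 nearest tested genes on each side. The neighbours of MYL9 and TAGLN had medians of -0.01 on the log2 scale, and 2 and 1 of 40 were at least as high as the gene itself. Around CNN1, on chromosome 19 from 11649582 to 11661138, 36 of 40 genes were lower, with a median of -0.31, while CNN1 itself was higher than all 40. TPM1, on chromosome 15 from 63334819 to 63364114, lay among genes that were mostly higher. Of its 40 neighbours 31 were higher, with a median of 0.26, and 6 were at least as high as TPM1, so that its log2 fold change above the neighbourhood was 0.33 in place of 0.59. TPM4 lay among genes with a median of -0.13, which left -0.18 of its -0.31. CNN2 lay among 27 higher genes of 40, with a median of 0.09 and 16 at least as high, which left 0.049 of its 0.14. The neighbours of ACTA2 had a median of 0.02, and 3 of 40 were at least as low as ACTA2, among them FAS beside it. For the set as a whole the median went from 0.15 to 0.084 after this subtraction. The part of chromosomal position in the levels was not tested further.

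**Figure D3:**
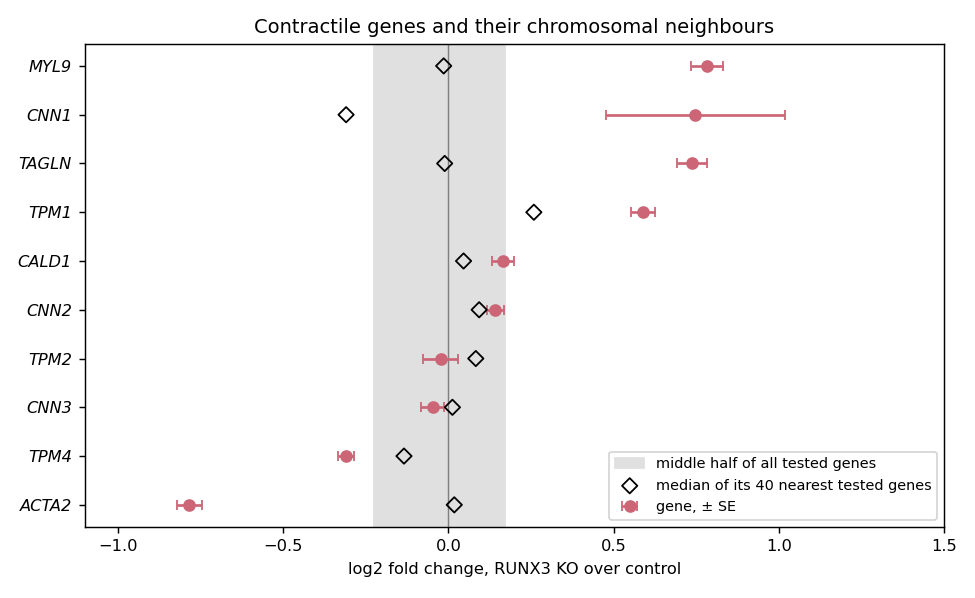
Log2 fold change of each contractile gene (filled circles, ± SE, horizontal axis, RUNX3 KO over control) and the median of its 40 nearest tested genes (open diamonds), with the interquartile range of all tested genes shaded. MYL9, CNN1, TAGLN and TPM1 lie right of the shading, ACTA2 and TPM4 left of it, and the diamonds of TPM1 and CNN1 stand apart at 0.26 and -0.31.

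The wider actomyosin system was followed through 6 lists of other genes, tested by edgeR's quasi-likelihood fit with p-values adjusted (Benjamini-Hochberg) across the 12967 genes, at an adjusted p under 0.05. At that threshold 48.9% of all tested genes were called, 24.5% as higher and 24.4% as lower, and a list is read against these shares. Genes with many reads were called at small changes, as MYL6 with a mean of 6185 counts at -0.07. The lists were not matched to all genes by level. DESeq2 called 3692 of the 12967 genes, and 4911 of 17650 were called without a filter on low counts. Fits lacking a library also called fewer genes in the whole table, so a lower number of calls was not limited to the lists. Of 8 actin, tropomyosin and transgelin paralogs, 4 were tested. ACTG1, cytoplasmic gamma-actin, rose by 0.15 on the log2 scale (SE 0.0209, edgeR adjusted p = 3.58e-09). TAGLN2, the transgelin of non-muscle cells, fell by 0.18 (SE 0.0323, edgeR adjusted p = 1.30e-06), a call lost without RUNX3 KO replicate 1 (edgeR adjusted p = 0.0582 at -0.16), which left 1 gene called. ACTB, cytoplasmic beta-actin, had a log2 fold change of -0.04 that missed the threshold (edgeR adjusted p = 0.0535) and passed it under 6 alternatives. TPM3 was not called, and the muscle actins ACTG2 and ACTA1 and TAGLN3 had at most 10 counts in any library while ACTC1 had 0. The listed relatives of TAGLN and ACTA2 therefore differed by at most 0.18 on the log2 scale where they could be tested.

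Of the 7 tested myosin II chains of 8 listed, 5 fell and none rose, 71.4% called beside 48.9% of all genes. MYH9, the heavy chain of non-muscle myosin IIA, fell from 9396 and 8858 to 6843 and 7069 counts (log2 fold change -0.41, SE 0.0251, edgeR adjusted p = 4.44e-26). MYH14, the IIC heavy chain, fell by 0.28 and the essential light chain gene MYL6B by 0.25 on the log2 scale. MYL12B and MYL6 fell by 0.09 and 0.07. MYH10, the IIB heavy chain (0.03, adjusted p = 0.462), and MYL12A (-0.05, adjusted p = 0.338) were not called, and the smooth muscle heavy chain MYH11 had 2 to 5 counts. MYL9, also a myosin II chain and higher, was left off the list because it is among the chosen genes. That no listed chain rose is in part set by this choice. Each tested light chain of the list was lower or not called. The number of calls was 3 with DESeq2 and without a filter on low counts, and 3, 1 and 2 without control replicate 2, RUNX3 KO replicate 1 and RUNX3 KO replicate 2. The calls of MYL6 and MYL12B were lost in each of these fits, that of MYL6B without either RUNX3 KO library (-0.24, adjusted p = 0.130 and -0.25, edgeR adjusted p = 0.140), and that of MYH14 without RUNX3 KO replicate 1 (-0.21, adjusted p = 0.0941).

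Genes that set the phosphorylation of the regulatory light chain gave 9 lower and 3 higher of 22 tested (54.5% called). DAPK3, a kinase of the light chain, rose by 0.38 (SE 0.0704) and DAPK1 by 0.34 (SE 0.0776) on the log2 scale. PPP1CB, the catalytic subunit of myosin phosphatase, rose by 0.10 (edgeR adjusted p = 0.0411), a call lost in 9 alternatives. ARHGEF2, an activator of RhoA, fell by 0.41 (SE 0.0463), CDC42BPB, a kinase related to ROCK, by 0.38 (SE 0.0393), and RND3, which antagonizes RhoA, by 0.36 (SE 0.0812). The following were named after their values were seen. RHOA (0.04), its effector kinase gene ROCK1 (0.02) and MYLK, the myosin light chain kinase gene (-0.0032), were not called, with adjusted p of 0.196, 0.703 and 0.989 by edgeR. ROCK2, the paralog of ROCK1, fell by 0.12 on the log2 scale (edgeR adjusted p = 0.0235). Of the targeting subunits of myosin phosphatase, PPP1R12B fell by 0.21 (edgeR adjusted p = 0.0200) and PPP1R12C by 0.23 (edgeR adjusted p = 0.00302), while PPP1R12A was not called (0.08, edgeR adjusted p = 0.243). The number of calls was 7 with DESeq2, and 5 and 4 without RUNX3 KO replicate 1 and 2. DAPK3 lost its call without RUNX3 KO replicate 1 (0.33, adjusted p = 0.0583), and RND3 without either RUNX3 KO library (-0.34, adjusted p = 0.0529 and -0.38, adjusted p = 0.0504). The 4 genes called without RUNX3 KO replicate 2 were DAPK3, DAPK1, ARHGEF2 and CDC42BPB, so that ROCK2, PPP1R12B and PPP1R12C were not called in that fit.

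Actin crosslinkers and stress fibre proteins gave 13 lower and 6 higher of 26 tested (73.1% called). CSRP2, a LIM protein of smooth muscle, fell most among the abundant ones, from 594 and 565 to 248 and 235 counts (log2 fold change -1.28, SE 0.0785, edgeR adjusted p = 3.21e-26). PDLIM1 (-0.64) and FHL1 (-0.64), LIM-domain genes as well, fell too, and PDLIM5 (0.37), ZYX (0.30), which encodes zyxin, and PDLIM7 (0.21) rose. PDLIM3, a LIM-domain gene with few reads that was named after its values were seen, rose from 20 and 25 to 49 and 56 counts (log2 fold change 1.205, SE 0.246, edgeR adjusted p = 2.13e-05), as the one gene of the list more than 2-fold higher. Different LIM-domain genes thus went in opposite directions. The calls numbered 9 and 8 without RUNX3 KO replicate 1 and 2. Those of PDLIM5 (0.37, adjusted p = 0.0601 and 0.36, adjusted p = 0.0745) and PDLIM7 (0.21, adjusted p = 0.112 and 0.22, adjusted p = 0.119) were lost without either of them, and that of FHL1 without RUNX3 KO replicate 2 (-0.48, adjusted p = 0.0939).

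Among genes for filament ends and turnover, 10 were lower and 6 higher of 23 tested (69.6% called). GSN, which encodes the severing protein gelsolin, fell by 0.82 (SE 0.150), the cofilin kinase gene LIMK2 by 0.54 (SE 0.0957), and TMSB10, an actin monomer-binding thymosin, by 0.53 (SE 0.0253) on the log2 scale. CAPZA2, a subunit of capping protein, rose by 0.36 (SE 0.0479), PFN2, a profilin, by 0.21 (SE 0.0412) and TWF1, twinfilin, by 0.21 (SE 0.0440). The calls numbered 7 and 4 without RUNX3 KO replicate 1 and 2. PFN2 was not called without either (0.19, adjusted p = 0.116 and 0.24, adjusted p = 0.0916), nor TWF1 without RUNX3 KO replicate 2 (0.13, adjusted p = 0.0896).

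SRF, the factor that binds the CArG box, was not called, with 865 and 823 counts in control and 873 and 847 in RUNX3 KO libraries (log2 fold change 0.01, SE 0.0530, edgeR adjusted p = 0.853). Of 7 tested genes for SRF and its cofactors, 2 fell and none rose (28.6% called). MKL1, now named MRTFA, the actin-regulated SRF cofactor, fell from 374 and 379 to 211 and 228 counts (log2 fold change -0.79, SE 0.0883, edgeR adjusted p = 7.62e-13). MKL1 lay in a stretch in which 38 of its 40 neighbours were lower, with a median of -0.53. ELK4, a ternary complex factor, fell by 0.26 (SE 0.0593), a call lost without RUNX3 KO replicate 2 (-0.19, adjusted p = 0.0822), which left 1. MKL2 (0.03), ELK1 (0.02), ELK3 (-0.13) and SCAI (-0.04) were not called (edgeR adjusted p from 0.721 to 0.855), and MYOCD, encoding myocardin, had at most 2 counts and ABRA 0.

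**Figure D4:**
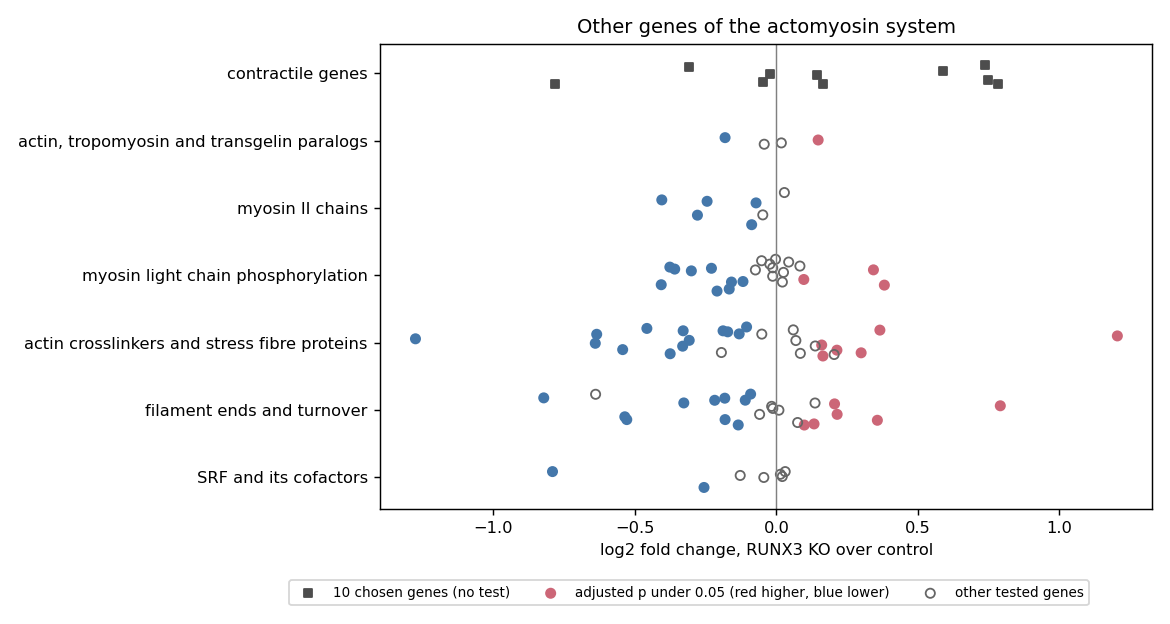
Log2 fold change (horizontal axis, RUNX3 KO over control) of the 10 chosen genes (squares, not tested) and of every tested gene in the 6 lists of other actomyosin genes, 1 point per gene, spread vertically for legibility. Filled circles are genes with an adjusted p under 0.05, red when higher and blue when lower. The myosin II chains have 5 filled points, all left of 0, while the other lists but that of SRF and its cofactors have filled points on both sides.

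Markers of differentiated smooth muscle were mostly too low to test. Of 11 listed genes 3 had enough counts to be tested, and 2 fell and 1 rose, where 48.9% of all tested genes were called. The summed level of the 11 was 144 to 148 CPM in control and 143 to 150 CPM in RUNX3 KO libraries, most of it SYNM. SMTN, which encodes smoothelin, fell from 287 and 245 to 107 and 112 counts (log2 fold change -1.29, SE 0.115, edgeR adjusted p = 2.61e-17). SYNPO2, synaptopodin 2, fell by 0.66 (SE 0.147), a call lost without RUNX3 KO replicate 2 (-0.63, adjusted p = 0.0609), and SYNM, the intermediate filament gene synemin, rose by 0.24 (SE 0.0425). The defining markers were at or near the floor, with DES, desmin, at 3 to 6 counts, LMOD1 at 5 to 12, and PLN and CASQ2 at 0 in every library.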

How the data were processed

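The deposited files hold raw counts of reads per gene symbol, without normalization, for each library. The paper states that the authors aligned reads with STAR to hg19 and counted them with featureCounts on GENCODE genes, whereas the submitters' processing notes name HISAT2 2.1.0 and HTSeq, and the tables close with 5 rows in the form of htseq-count. These rows took 25.9% to 28.1% of all counts and were left out. RNA was prepared with a stranded poly(A) kit per the labels. How strand was set in counting is not given in the sources used here, so reads of overlapping genes are uncertain.

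The test was that of edgeR 4.0.16 (R 4.3.3). Its function filterByExpr at its defaults (minimum count 10, minimum total 15) left 12967 genes, which were scaled by TMM and compared with glmQLFit and glmQLFTest and Benjamini-Hochberg adjustment, without a replicate block. Log2 fold changes are RUNX3 KO over control and their SE is their size divided by the square root of F. With 2 libraries per condition, the smallest p of an exact permutation test is 0.333. The members and lists were chosen with earlier results of these data known. Named were the 10 genes, RUNX3, the paralogs, myosin II chains and SRF cofactors, and from each other list up to 3 genes that rose and 3 that fell most among called genes whose conditions did not overlap and whose mean count was 50 or more. Others were named after their values were seen (PCSK7, FAS, STAMBPL1, RHOA, ROCK1, ROCK2, MYLK, the PPP1R12 genes, PDLIM3, FAP, the untested muscle genes, the troponins other than TNNC1, and epithelial markers). Lengths, overlaps and positions came from GENCODE v44 on GRCh37, with positions for 93.4% of tested genes. The alternatives were other scalings, filters and tests (DESeq2 1.42.0, limma-voom of limma 3.58.1, edgeR's newer quasi-likelihood method), a replicate block, each library left out, neighbourhood subtraction and other lengths. The fits were tested on simulated data.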

Additional observations from a re-analysis of the deposited data

How the results depend on the processing

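In the 4 fits that lacked 1 library each, the number of genes called lay between 1 and 3 for the paralogs, 1 and 5 for myosin II chains, 4 and 11 for light chain phosphorylation, 8 and 21 for crosslinkers, 4 and 15 for filament ends and turnover, 1 and 2 for SRF and its cofactors, 2 and 3 for smooth muscle markers, 2 and 3 for striated muscle markers, 2 and 4 for epithelial markers, and 2663 and 5551 for all genes, while it was 8 in each case for fibroblast markers. The lone library of a condition is then assumed to vary like the others. DESeq2 called 3692 genes in all against 6341, 3 myosin II chains, 7 genes of light chain phosphorylation and 2 epithelial markers. Without a filter on low counts, 3 myosin II chains and 2 epithelial markers were called, and with at least 10 counts in every library 1 striated muscle marker, since TNNT2 was then not tested. The cause of the other shifts was not tested. The median log2 fold change of the 10 genes stayed between 0.13 and 0.17 except for 0.084 after subtraction of the neighbourhood median. Of the 10 genes, TPM2 changed sign in 2 of the alternatives, those without control replicate 1 or RUNX3 KO replicate 1, and the other 9 in none. A block for the replicate number left 6286 genes called and moved no number of calls in a list. Same-numbered libraries did not deviate together (correlation -0.0051 over 10869 genes), so the numbers were not taken as pairs. Of 571 values for 44 tested named genes under the alternatives, 37 lost their call, 6 gained one and none reversed. CNN1, with 21 to 39 counts, is limited by depth.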

Other observations

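Genes of the striated muscle thin filament held a difference larger than any of the 10 contractile genes. TNNC1, which encodes the calcium-binding troponin C of cardiac and slow skeletal muscle, rose from 74 and 69 counts in control to 375 and 360 in RUNX3 KO libraries (log2 fold change 2.35, SE 0.116, edgeR adjusted p = 1.83e-32). TNNT2, cardiac troponin T, rose from 6 and 5 to 22 and 31 counts (log2 fold change 2.23, SE 0.403, edgeR adjusted p = 1.88e-06) and was not tested when 10 counts were required in every library. TNNT1, slow skeletal troponin T, was present at 405 and 398 against 387 and 379 counts and was not called (-0.08, edgeR adjusted p = 0.396), and TNNI3, cardiac troponin I, had 11 and 7 against 2 and 3 counts, too few to test. Of the 20 striated muscle markers listed, 4 were tested and 2 rose, a share of 50% called beside 48.9% of all tested genes, while 9 had 0 counts in every library, TTN, MYOD1 and MYOG among them. Their summed level was 43.5 to 45.2 CPM in control and 67.8 to 69.3 CPM in RUNX3 KO libraries, a difference carried mostly by TNNC1 (6.06 ± 0.298 and 30.9 ± 1.29 CPM, SD, n = 2 in each).

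The epithelial markers that could be tested, KRT8, CDH1, CDH3 and CLDN7, were all called higher, from low levels, where 24.5% of all tested genes were called higher. KRT8, a keratin of simple epithelia, went from 19 and 11 to 72 and 81 counts (log2 fold change 2.33, SE 0.251) and CDH3, P-cadherin, from 16 and 17 to 81 and 74 (2.21, SE 0.242). CDH1 and CLDN7 had 14 to 35 counts. The number of the 4 genes called was 2 with DESeq2, with no filter on low counts, and in fits lacking either RUNX3 KO library.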
